A study of Mus musculus with 11 samples.

Results

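The genes of the cytosolic ribosome were followed through fat cell formation in 3T3-L1, a line of mouse fibroblasts (preadipocytes) that an adipogenic cocktail converts to adipocytes. Members were taken by gene symbol (Rpl or Rps followed by a digit, Rplp0 to Rplp2, and Rpsa), without the S6 kinases, Rps19bp1 and genes annotated as pseudogenes. The rule found 64 of the 19057 genes that the array annotation names. By the prefix of the symbol 35 were assigned to the large and 26 to the small subunit, beside the 3 stalk genes Rplp0, Rplp1 and Rplp2. Paralogues and the retrogene Rps23rg1 are included in these counts, whether or not their products sit in the ribosome. The rule left 7 genes with matching symbols outside. Each gene was read on its brightest probe, the 64 genes having 95 probes in all. Other ribosomal protein genes were not analysed here.

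Total RNA was measured on 11 Illumina MouseWG-6 v2 arrays, each sample on its own array, and values are log2 probe signals after quantile normalisation. All cells belonged to stable lines transduced with lentiviruses that encode short hairpin RNAs. Preadipocytes (n = 2, day 0, undifferentiated) and control adipocytes (n = 3) carried a non-target hairpin. Differentiated cells with hairpins against Tmem120a (n = 2), Tmem120b (n = 2) or both genes (double knock-down, n = 2) were set against the control adipocytes. The 9 arrays of differentiated cells shared an induction with IBMX (0.5 mM), dexamethasone (1 µM), insulin (0.5 µM) and rosiglitazone (1 µM), and were then kept on the last 2 agents. Their day of harvest is uncertain, being 9 in the labels of the samples and 6 in the text of the series and in the methods. The methods call the replicates biological, and no source used here says how many clones or transductions stand behind each line.

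A ribosome has a small subunit, which reads the mRNA, and a large subunit, which joins the amino acids. Each carries its own set of ribosomal proteins, made from some of the most abundant mRNAs of a growing cell. The proteins are needed in fixed proportions, so that the genes are usually regulated as a block. In mammals the mRNAs start with a short stretch of C and T bases, the 5′ terminal oligopyrimidine tract, through which the growth-controlling kinase mTORC1 adjusts their translation. 3T3-L1 preadipocytes stop dividing as they mature, and Rplp0 is a common reference gene in quantitative PCR, which makes its behaviour during adipogenesis of practical interest.

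The labels held on the targeted genes. Tmem120a changed by -1.33 on the log2 scale with its own knock-down and by -1.12 with the double one, and Tmem120b by -2.07 and -1.62. Of 11 adipocyte markers 10 rose in differentiation. The summed linear signal of the 11 went from 5220 to 5230 on preadipocyte arrays to 76700 to 83400 in control adipocytes, 90500 to 93500 in the Tmem120a, 69600 to 72700 in the Tmem120b and 73800 to 79400 in the double knock-down. Of 5 macrophage and 4 endothelial markers 0 were called in any of these comparisons by limma. At an unadjusted p under 0.05 stood at most 1 macrophage and 2 endothelial markers in a comparison, and Adgre1, Itgam, Ptprc, Pecam1 and Cdh5 were at background in all groups. Before normalisation the median probe lay at 6.58 to 6.70 on the 6 knock-down arrays and at 6.75 to 7.10 on the other 5, so a difference shared by all knock-downs cannot be told apart from this shift.

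Signals of 58 of the 64 genes exceeded the background threshold (log2 6.86) in at least 1 group and those of 54 in all 5 groups. The probes of Rpl17, Rpl39l, Rpl3l, Rps20, Rps23 and Rps4l were not well above background in any group, and those of Rpl14, Rpl6, Rpsa and Rps23rg1 in only some, which bounds what the probe can show and is no statement on the gene. At the other end, 32 members had a mean signal above 13 (of 145 such genes on the array) and 12 had one above 14 (of 31). Between 11 and 22 of the 100 brightest probes of each array belonged to a member. The highest value in the table was 14.61. Within 0.5 of it, in at least 1 group, lay the means of 14 genes. These were Rplp1, Rpl3, Rpl9, Rpl23, Rpl27a, Rpl35, Rpl37, Rpl38, Rpl41, Rps2, Rps9, Rps12, Rps14 and Rps29.

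Upstream sequences were examined because these genes are known to share a start-site signature, with 53 of the 64 members matched to RefSeq starts (GRCm38.p6). A run of at least 8 C or T bases on the gene's strand, within 40 bases of the start on either side, was present in 41 of the 53 members (77.4%) and in 32.3% of the 15237 array genes with a start. The letters CCGGAAG, searched on both strands over 300 bases around the start, occurred in 23 of the 53 (43.4%) against 13.8%, and the 2 patterns can overlap. Windows from 60 bases before to 20 bases after the start are shown for 6 genes whose changes are described in the next paragraphs, with runs of C or T and CCGGAAG (either strand) in capitals. They are Rplp0 (chr5:115559407-115559486, plus strand), Rpl13a (chr7:45128726-45128805, minus), Rpl38 (chr11:114668520-114668599, plus), Rps6 (chr4:86857348-86857427, minus), Rpl22l1 (chr3:28805448-28805527, plus) and Rps3a1 (chr3:86142649-86142728, minus).
Rplp0: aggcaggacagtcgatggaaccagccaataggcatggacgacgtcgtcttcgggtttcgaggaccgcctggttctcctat
Rpl13a: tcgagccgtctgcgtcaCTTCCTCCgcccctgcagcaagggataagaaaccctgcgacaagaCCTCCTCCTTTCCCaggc
Rpl38: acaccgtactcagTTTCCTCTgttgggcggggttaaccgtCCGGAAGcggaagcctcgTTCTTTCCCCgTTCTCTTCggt
Rps6: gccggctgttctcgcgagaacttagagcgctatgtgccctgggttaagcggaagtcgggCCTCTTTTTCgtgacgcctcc
Rpl22l1: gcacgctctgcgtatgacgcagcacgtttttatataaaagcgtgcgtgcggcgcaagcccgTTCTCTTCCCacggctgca
Rps3a1: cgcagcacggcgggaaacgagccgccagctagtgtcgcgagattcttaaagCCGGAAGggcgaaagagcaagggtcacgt

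In Rpl13a, Rpl38, Rps6 and Rpl22l1 a marked run lies at or next to the start, and in the windows of Rplp0 and Rps3a1 these runs are not found. Members that fell in differentiation held the run in 15 of 23 (65.2%) and CCGGAAG in 6 of 23 (26.1%). The remaining matched members held them in 26 of 30 (86.7%) and 17 of 30 (56.7%). These shares are descriptions of letters, with no test.

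Many ribosomal protein genes were lower after differentiation, and Rplp0 fell furthest. A call by limma needed an adjusted p of at most 0.05 and a change of at least 0.5 on the log2 scale (1.41-fold). In control adipocytes against preadipocytes 26 of 64 members (40.6%) fell and 0 rose. At an unadjusted p under 0.05 stood 39 members, all among the 58 above background. So did 7817 of all genes and 7573 of the 10951 genes above background. Over all 19057 genes 11.1% fell and 11.9% rose, and over the 10951 genes above background 19.3% and 20.7%. The median change of the members was -0.38, against 0.00 over all genes, and 49 of the 64 had a negative value. The 26 were 14 of 35 large subunit genes, 11 of 26 small subunit genes and 1 of 3 stalk genes. Without the fold threshold 36 members were lower and 1 was higher (17.5% and 18.6% over all genes), the latter being Rpl22 at 0.26 (SE 0.067, adjusted p = 0.00928). When arrays were merely shifted to equal medians, 10 members were lower and 1 higher while 3605 genes rose and 1261 fell, and the members' median stayed below 0 at -0.27.

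**Figure D1:**
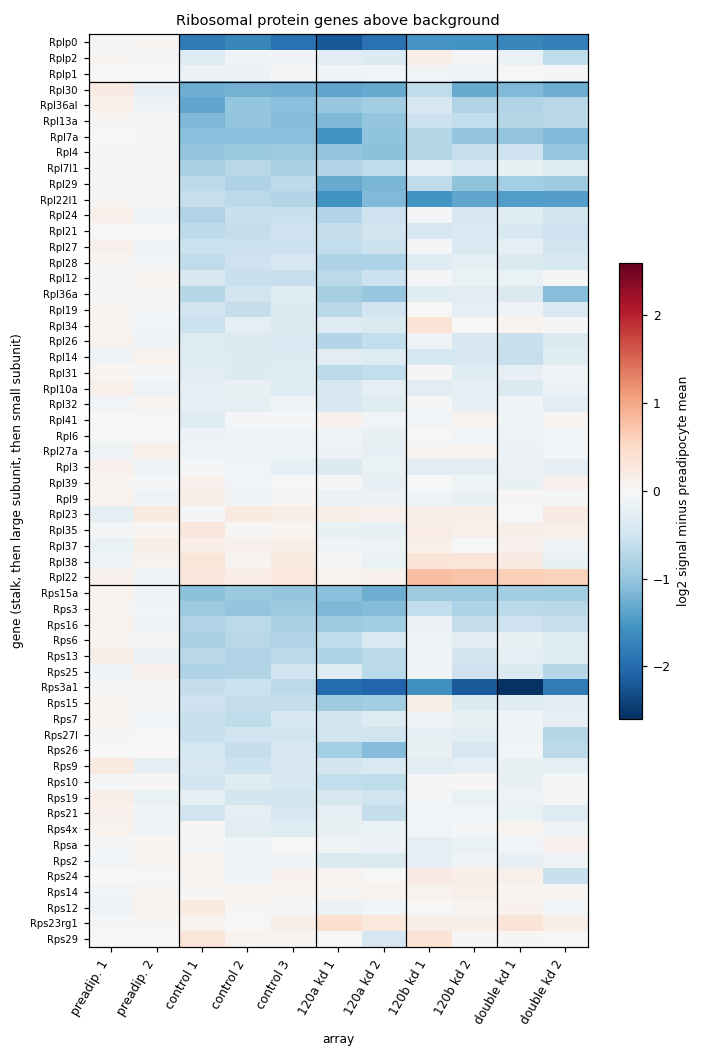
Log2 signal of each of the 58 ribosomal protein genes above background (rows, stalk, large and small subunit, each sorted by its change in differentiation) on each of the 11 arrays (columns), minus the gene's preadipocyte mean. Blue is lower and red higher than in preadipocytes. Rplp0 and Rps3a1 reach the deepest blue, Rplp0 in all differentiated cells and Rps3a1 in the knock-downs.

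Among the stalk genes, Rplp0, the protein that anchors the stalk to the large subunit, had the largest change of the 64 members. Its signals were 10.81 and 10.90 in preadipocytes and 9.02, 9.15 and 8.92 in control adipocytes. The groups lay far apart, a change of -1.82 (SE 0.082, adjusted p = 1.61e-09) or 3.54-fold. A dimmer probe of Rplp0 read 7.50 and 7.39 in preadipocytes and 6.96, 6.97 and 6.98 in control adipocytes, a smaller change of -0.47 (adjusted p = 2.26e-05), just short of the fold threshold. In control adipocytes this probe lay close to the background threshold (6.86), so a larger fall could not be seen on it. Rplp1 and Rplp2 form the flexible arms that bind the translation factors. Rplp1 lay at the top of the scale throughout, at 14.61 in both preadipocyte arrays and 14.45, 14.46 and 14.57 in control adipocytes (-0.12, adjusted p = 0.158). Rplp2 was at 13.88 and 13.79 against 13.50, 13.74 and 13.74 (-0.18, adjusted p = 0.43). Neither was called. Both preadipocyte arrays of Rplp1 sat at the highest value of the table, so a fall from a higher level could not be seen there.

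In the large subunit, Rpl30 fell the most. Its signals were 12.12 and 11.69 in preadipocytes and 10.64, 10.67 and 10.65 in control adipocytes (-1.25, SE 0.16, adjusted p = 2.73e-05). Rpl13a, which in human cells can leave the ribosome to silence inflammatory mRNAs, went from 11.65 and 11.57 to 10.44, 10.58 and 10.49 (-1.11, SE 0.066, adjusted p = 2.37e-08). Neither gene's groups overlapped, and the control arrays were tightly bunched. Rpl7a went from 12.35 and 12.30 to 11.24, 11.25 and 11.25 (-1.08, adjusted p = 8.69e-06). Rpl4, whose protein helps line the tunnel through which the new peptide leaves, went from 10.87 and 10.79 to 9.83, 9.87 and 9.88 (-0.98, adjusted p = 4.87e-06). The other 10 large subunit genes that fell, Rpl36al and Rpl7l1 among them, lay between -0.52 (Rpl12 and Rpl36a) and -1.15 (Rpl36al). The call of Rpl36a was lost when either preadipocyte array or control adipocyte array 1 or 2 was left out (adjusted p from 0.0632 to 0.167). Rpl12, Rpl27 and Rpl28 slipped under the fold threshold, to between -0.43 and -0.49, without preadipocyte array 2 or control adipocyte array 3 (Rpl12), preadipocyte array 1 (Rpl27), and preadipocyte array 1 or control adipocyte array 1 (Rpl28).

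In the small subunit, Rps15a and Rps3 led. Rps15a stood at 8.38 and 8.20 in preadipocytes and 7.23, 7.33 and 7.29 in control adipocytes (-1.01, SE 0.069, adjusted p = 8.58e-08). Rps3, which sits where mRNA enters the ribosome, stood at 13.51 and 13.37 and then at 12.50, 12.41 and 12.49 (-0.97, SE 0.067, adjusted p = 9.56e-08). In neither gene did the groups overlap. Rps6, the substrate of the S6 kinases that mTORC1 activates, went from 13.42 and 13.32 to 12.53, 12.65 and 12.59 (-0.78, adjusted p = 8.21e-06). The remaining 8 that fell lay between -0.50 (Rps26) and -0.78 (Rps16). Rps3a1 (-0.62, adjusted p = 0.0225) was no longer called without either preadipocyte array or without control adipocyte array 1 or 3 (adjusted p from 0.053 to 0.137), and Rps26 was lost without preadipocyte array 1, preadipocyte array 2 or control adipocyte array 2 (adjusted p from 0.0726 to 0.106). Rps25 was lost without preadipocyte array 2 (adjusted p = 0.058), and Rps7 slipped under the fold threshold without preadipocyte array 1 or control adipocyte array 2.

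How far a member fell differed with the signal of its probe. Among the 12 members with a mean above 14 the median change was 0.07 and 0 were called. It was -0.40 in the 20 members between 13 and 14, -0.73 in the 12 between 11 and 13, -0.98 in the 7 between 9 and 11 and -0.65 in the 4 between the background and 9. Over all genes the medians of the same bins, from the brightest down, were 0.08, 0.23, 0.16, 0.08 and 0.00. Whether saturation near the top of the scale had a part in this was not tested.

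Genes with several probes allowed the same comparison within a gene. In 18 genes with more than 1 probe above background, 25 pairs of the brightest and another probe could be formed, and the dimmer probe fell more in 18 of them. Where the brightest probe was above 13 (17 pairs), the dimmer one fell more in 14, and 10 of the dimmer probes against 1 of the brightest ones were called lower. Where it was at 13 or less (8 pairs), the dimmer one fell more in 4. Pairs of the same gene share its brightest probe, and some dimmer probes, such as those of Rpl37 (means 6.79 and 6.78), lay at the background. The pairs are therefore not separate observations. Rps24, mutated in human Diamond-Blackfan anaemia, read 13.92 and 13.89 in preadipocytes and 13.98, 13.79 and 14.03 in control adipocytes on its brightest probe (0.03, adjusted p = 0.954). A probe designed on another Rps24 transcript read 9.95 and 9.70 and then 7.79, 7.84 and 7.95 (-1.96, SE 0.11, adjusted p = 1.54e-08), a larger fall than that of Rplp0, and a further Rps24 probe changed by -1.41. The groups overlapped on the bright probe and lay apart on the others.

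Rpl38, needed in mouse embryos for the translation of Hox mRNAs, behaved alike. Its bright probe stood at 14.01 and 14.19 in preadipocytes and 14.42, 14.17 and 14.33 in control adipocytes (0.21, adjusted p = 0.248), and its dimmer probe at 10.92 and 10.66 and then 9.29, 9.62 and 9.43 (-1.34, adjusted p = 4.35e-06). Rpl31 changed by -0.33 on its brightest probe and by -1.56 and -1.41 on the others, and Rps2 by -0.04 and -0.56. The direction was not uniform. Rps19 had another probe that rose (8.12 to 8.75 in the group means, 0.63, adjusted p = 0.00336), while its brightest probe was at -0.40 (adjusted p = 0.00758), and none of the probes of Rpl23, Rpl37 and Rps12 was called. Taking the brightest probe of at most 13, a setting chosen after this pattern had been seen, left 31 members with a median of -0.73. Of these 26 fell and 1 rose, against 21.8% lower and 23.5% higher among the 9513 genes with such a probe.

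**Figure D2:**
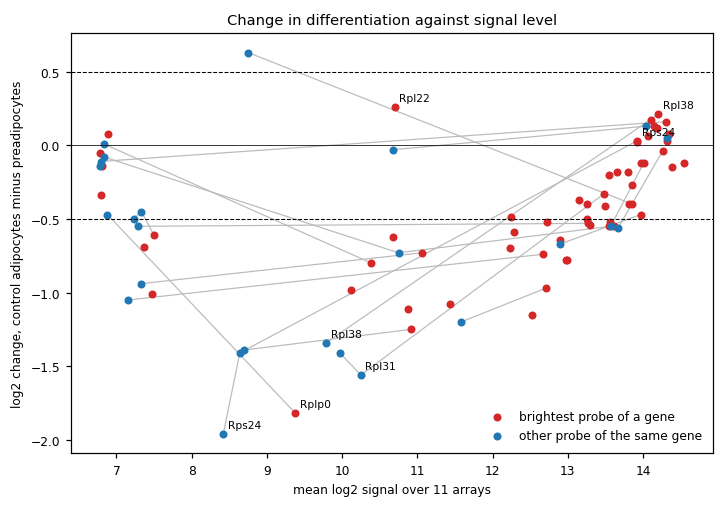
Log2 change of each member probe above background between preadipocytes and control adipocytes (vertical axis) against its mean log2 signal over the 11 arrays (horizontal axis). Red points are the brightest probe of a gene, blue points its other probes, and grey lines join probes of 1 gene. Dashed lines mark 0.5 in either direction. Points near 14 gather around 0, and dimmer probes of the same genes, such as those of Rps24 and Rpl38, lie lower.

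**Figure D3:**
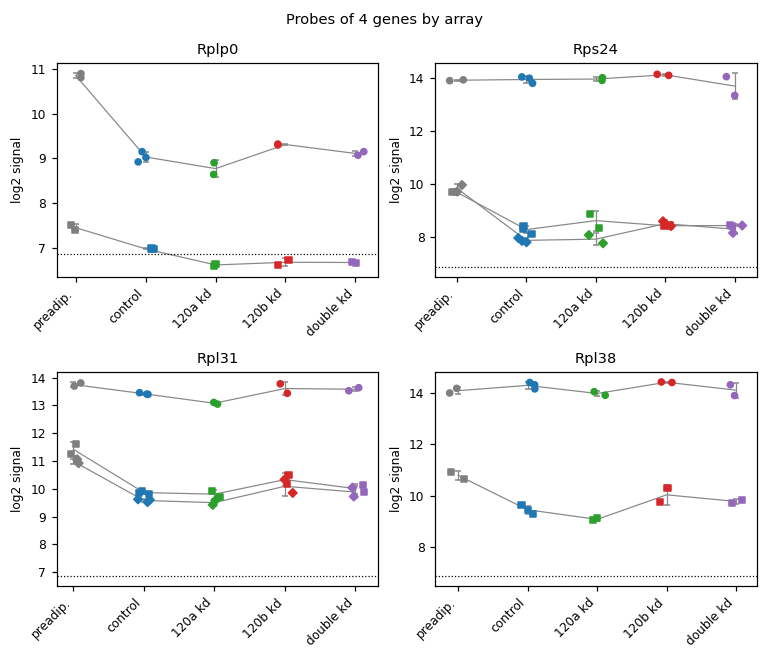
Log2 signal on each array (points) of the probes of Rplp0, Rps24, Rpl31 and Rpl38 above background in any group, with lines joining the group means, bars of 1 SD and a dotted line at the background threshold. Marker shape separates the probes of a gene. The upper probes of Rps24, Rpl31 and Rpl38 stay near 13 to 14.4, and their lower probes drop between preadipocytes and control adipocytes.

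Several members are paralogues, some of which can replace their counterpart in some tissues. Rpl36a and its paralogue Rpl36al both fell in differentiation (-0.52 and -1.15). Rpl22 and Rpl22l1 went opposite ways, with Rpl22 at 0.26, under the fold threshold, and Rpl22l1 called at -0.69 (adjusted p = 0.000167). In mouse cells the Rpl22 protein is known to hold down Rpl22l1. Rps27l (-0.54, adjusted p = 0.00438), a target of p53 in human cells, and Rpl7l1 (-0.80, adjusted p = 8.45e-07) fell, and their counterparts Rps27 and Rpl7 were not analysed here. A dimmer probe of Rpl7l1 did not move (0.01, adjusted p = 0.955), but its mean of 6.83 lay at the background, which limits what it could show. Rpl3l, a form of heart and skeletal muscle, Rpl39l, a form of testis, and Rps4l were at background beside Rpl3 (-0.12), Rpl39 (0.02) and Rps4x (-0.18), none of which was called. Rps23rg1, a retrotransposed copy of Rps23, hovered at the threshold. Probes of such near-identical genes, and of the many processed copies of ribosomal protein genes in the mouse genome, may share target RNA, and probe specificity was not examined.

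Genes that build ribosomes fell in large number as well. Of 73 ribosome assembly factors 52 fell and 1 rose (median -0.99), beside 19.3% and 20.7% of genes above background. Nop56, a core protein of the particles that methylate rRNA, went from a mean of 11.81 to 9.28 (-2.53, adjusted p = 1.56e-10), Gar1, from the particles that pseudouridylate it, from 12.11 to 10.28 (-1.83) and Rrp9, a protein of the U3 particle, from 9.93 to 8.14 (-1.79). Of 24 genes of rRNA transcription 12 fell and 0 rose, with the RNA polymerase I subunits Polr1b at -1.98, Polr1e at -1.64 and Polr1a at -1.33. Among 35 translation factors 15 fell and 1 rose (median -0.21), led by Eif2s2 (-1.48), Eif5a (-1.34) and Eef1b2 (-1.13). Of 76 genes for mitochondrial ribosomal proteins, which serve the separate ribosome of the mitochondrion, 9 rose and 4 fell, with a median of 0.07, no more than the 11.9% and 11.1% of all genes that rose and fell. Mrps35 and Mrpl34 rose by 0.82 each and Mrps18a by 0.69. Of 28 regulators of growth and ribosome genes 5 rose and 2 fell, no more than the 20.7% and 19.3% of genes above background. The leading ones were the Myc antagonists Mxd1 (1.59), Mxi1 (1.11) and Mxd4 (1.11).

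Knock-down of Tmem120a in adipocytes left most members in place. Against control adipocytes 3 of 64 fell (4.69%) and 0 rose. Over all genes 2.32% were lower and 0.829% higher, and over those above background 4.04% and 1.44%. At an unadjusted p under 0.05 stood 22 members, all among the 58 above background, beside 4025 of the 10951 genes above background. By adjusted p alone 8 members were lower and 1 higher, with 5.46% and 5.21% of all genes. The median change was -0.07. Rps3a1, a small subunit gene, had signals of 11.34, 11.41 and 11.26 in control adipocytes and 9.95 and 9.89 in the knock-down. The groups were more than 1 unit apart (-1.42, SE 0.19, adjusted p = 0.000398). Rpl22l1 went from 7.72, 7.61 and 7.56 to 6.75 and 7.18 (-0.67, adjusted p = 0.00153), the lower array lying under the background threshold. Rpl29 went from a mean of 11.08 (SD 0.069, n = 3) to 10.50 and 10.61 (-0.52, adjusted p = 0.00434), but its dimmer probe did not move (-0.06, adjusted p = 0.564). The mean of that probe, 7.32, lay near the background, which limits the fall it could show. Without Tmem120a array 1 neither Rpl22l1 (-0.45) nor Rpl29 (-0.46) reached the fold threshold, and without control adipocyte array 3 Rpl29 was not called. When arrays were merely shifted to equal medians, 19 members fell and 0 rose, beside 2626 genes lower and 7 higher. Rplp0 was at -0.27 (adjusted p = 0.0749) and became called under that shift (-0.79, adjusted p = 0.00405).

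The Tmem120b knock-down held members that moved either way, Rps6, Rpl34 and Rpl22 upward and Rps3a1 and Rpl22l1 downward. Against control adipocytes 5 of 64 rose (7.81%) and 2 fell (3.12%), where 3.83% of all genes rose and 4.04% fell. Among genes above background the shares were 6.66% and 7.03%, so the members' share of rises was near the background. The median change was 0.18 and 51 of 64 values were positive. Without the fold threshold 17 rose and 2 fell, with 11.3% and 8.94% of all genes. Rps6 had signals of 12.53, 12.65 and 12.59 in control adipocytes and 13.24 and 13.09 in the knock-down (0.57, SE 0.085, adjusted p = 0.000445). Rpl34 went from 12.84, 13.14 and 13.03 to 13.75 and 13.39 (0.57, adjusted p = 0.00217). In both genes the groups were separate, and array 1 was the higher of the knock-down arrays. Rpl22 rose from 10.66, 10.55 and 10.64 to 11.14 and 11.10 (0.50, SE 0.067, adjusted p = 0.000173), and Rpl13a (0.50) and Rpl36al (0.54) were also called.

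The count of rises moved with single arrays and with the scaling. Without Tmem120b array 1 the calls numbered 0, although Rpl22 (0.49, adjusted p = 0.00349), Rpl13a (0.46, adjusted p = 0.00393), Rps6 (0.50, adjusted p = 0.0103) and Rpl34 (0.39, adjusted p = 0.0399) missed only the fold threshold, and Rpl36al (0.36, adjusted p = 0.129) missed both. The calls numbered 12 without Tmem120b array 2 and 3 without control adipocyte array 1. With that median shift 0 rose and 3 fell, beside 156 genes higher and 2515 lower, although the members' median stayed positive at 0.08. Rplp0 stood at 9.32 and 9.30 in the knock-down (0.27, adjusted p = 0.0421). Its dimmer probe, at 6.73 and 6.61, was under the background threshold there. The 2 members that fell were again Rps3a1, at 10.36 and 9.78 (-1.26, SE 0.19, adjusted p = 0.000391), and Rpl22l1, at 6.77 and 6.96 (-0.76, adjusted p = 0.000224). These Rpl22l1 values lay around the background threshold of 6.86, which limits the size of fall that could be seen.

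**Figure D4:**
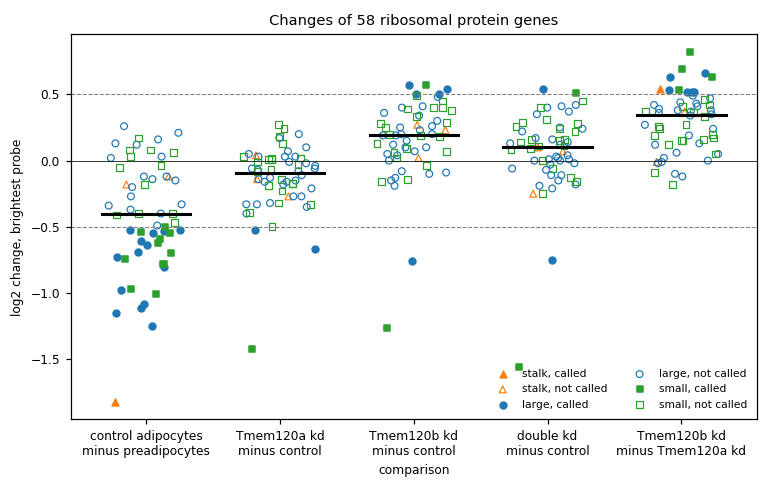
Log2 change on the brightest probe of the 58 members above background (1 point per gene) in 5 comparisons, with filled points for called genes, shapes for the stalk and the subunits, and a bar at the median of these 58. Dashed lines mark 0.5 in either direction. Most filled points of the first comparison lie below -0.5, those of the last lie above 0.5, and Rps3a1 and Rpl22l1 lie apart below in each knock-down.

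In the double knock-down Rpl7l1 and Rps6 were higher and Rps3a1 and Rpl22l1 lower. Against control adipocytes 2 members rose and 2 fell (3.12% each), with 3.29% of all genes higher and 3.96% lower, or 5.73% and 6.89% of those above background. By adjusted p alone 11 were higher and 2 lower, with 10.6% and 8.67% of all genes. The median change was 0.08. It turned to -0.03 under a common median shift, where 0 rose and 2 fell beside 154 genes higher and 1597 lower. Rpl7l1, at 9.99, 10.12 and 10.00 in control adipocytes, read 10.65 and 10.50 in the knock-down (0.54, SE 0.069, adjusted p = 0.000149), and Rps6 read 13.18 and 13.03 (0.51, adjusted p = 0.00115). The dimmer Rpl7l1 probe, at the background, did not move (-0.01, adjusted p = 0.937). Rps3a1, at 9.40 and 10.15, changed by -1.56 (SE 0.19, adjusted p = 7.85e-05) and Rpl22l1, at 6.87 and 6.88, by -0.75 (adjusted p = 0.000272). Rpl22l1 was again at the background threshold in the knock-down. Array 2 was low for several members, Rpl36a (12.86 and 12.13) and Rps24 (14.04 and 13.33) among them. Without array 1 the counts were 0 higher and 5 lower, and without control adipocyte array 1 they were 1 higher and 2 lower. The 3 knock-downs shared the control adipocyte arrays, so the fall of Rps3a1 and Rpl22l1 in each is not independent evidence.

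Rps3a1 and Rplp0 had the widest ranges of group means among the members, 2.18 and 2.09. Rpl22l1, whose lowest group means lay near the background, followed with a range of 1.45. The narrowest ranges were those of Rpl17 and Rps23 (0.11 each), both at background. At 0.12 lay Rplp1 and Rps14 near the top of the scale and Rpl3l at background. Under the common median shift Rps3a1 stayed lower in the Tmem120a (-1.90, adjusted p = 0.000802), Tmem120b (-1.68, adjusted p = 0.000886) and double knock-down (-1.84, adjusted p = 0.000685). Rps3a1 has only 1 probe on the array. Rps3 showed how far 2 probes can part. Its brightest probe was slightly higher in the Tmem120b and double knock-downs (0.25 and 0.26, adjusted p = 0.0217 and 0.0182), while the other, at 11.73, 11.65 and 11.82 in control adipocytes, read 10.95 and 10.97, 11.40 and 10.81, and 10.89 and 11.27 in the Tmem120a, Tmem120b and double knock-down. That probe fell in each (-0.77, -0.63 and -0.66, adjusted p = 0.00481, 0.00895 and 0.00731).

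**Figure D5:**
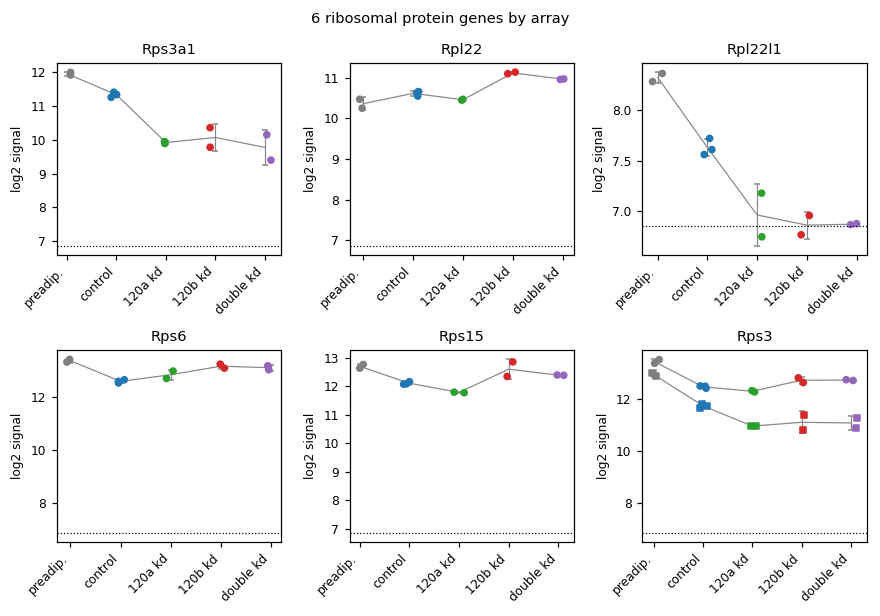
Log2 signal on each array (points) of Rps3a1, Rpl22, Rpl22l1, Rps6, Rps15 and both probes of Rps3 (circles, the brightest), with lines joining group means, bars of 1 SD and a dotted line at the background threshold. Rps3a1 and Rpl22l1 are lower in each knock-down than in control adipocytes, Rpl22 reads higher in the Tmem120b and double knock-downs, and the probes of Rps3 part in the knock-downs.

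The single knock-downs were compared with each other, which leaves the control arrays out of the difference itself. The spread behind its SE and adjusted p still came from all 5 groups. Members were higher in the Tmem120b than in the Tmem120a knock-down in 11 of 64 (17.2%) and lower in 0. Over all genes 3.66% were higher and 2.75% lower, or 6.37% and 4.79% of those above background. At an unadjusted p under 0.05 stood 36 members, all among the 58 above background, beside 4762 of the 10951 genes above background. Without the fold threshold 21 members were higher and 0 lower, with 7.87% and 6.86% of all genes. The median difference was 0.27 and 55 of 64 were positive. Rps15, whose protein reaches into the decoding centre, read 11.77 and 11.79 with Tmem120a and 12.85 and 12.34 with Tmem120b knocked down (0.82, SE 0.12, adjusted p = 0.000687). Rps26 read 12.82 and 12.59 against 13.51 and 13.28 (0.69, SE 0.16, adjusted p = 0.0143), and Rpl22 10.45 and 10.47 against 11.14 and 11.10 (0.66, SE 0.073, adjusted p = 8.27e-05). None of these pairs of arrays overlapped, and in Rps15 array 1 of the Tmem120b knock-down was well above array 2. Under a common median shift 11 members were higher and 0 lower, the median being 0.47, with 407 genes higher and 167 lower. Of the 11 called without the shift 6 were among them, and Rpl22 (0.75, adjusted p = 0.0804), Rps26 (0.83, adjusted p = 0.0788), Rplp0 (0.59, adjusted p = 0.0706), Rpl36a and Rps16 were not. The count was 5 without Tmem120b array 1 and 21 without Tmem120b array 2. With a probe of at most 13 it was 7 of 31, beside 7.26% of genes higher and 5.51% lower. Rpl28 (0.52) was called on its brightest probe but not on the other (0.34, adjusted p = 0.0303), whose mean of 7.29 lay near the background. Rplp0 (0.54) was also called, and its dimmer probe was under the background threshold in both groups.

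Against the Tmem120a knock-down the double knock-down was higher in 6 members (9.38%) and lower in 0, with a median of 0.17. Over all genes 2.75% were higher and 2.13% lower, or 4.78% and 3.7% of those above background. At an unadjusted p under 0.05 stood 24 members, all among the 58 above background, beside 4370 of the 10951 genes above background. Without the fold threshold 14 members were higher and 0 lower, with 6.3% and 5.65% of all genes. Rps15 (0.61), Rps26 (0.61) and Rps10 (0.53) led, and Rpl12, Rpl22 and Rpl31 followed at 0.51 each. On its other probes Rpl31 was not called (0.20 and 0.37, adjusted p = 0.495 and 0.143). Without Tmem120a array 1 the count was 2. Between the double and the Tmem120b knock-down limma called 0 members. Over all genes 0.0472% were higher and 0.152% lower, or 0.0822% and 0.265% of those above background. At an unadjusted p under 0.05 stood 7 members, all among the 58 above background, beside 1948 of the 10951 genes above background. At adjusted p alone 0 members passed, with 0.105% and 0.289% of all genes. The median was -0.07, and without double knock-down array 1 there were 4 lower.

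The companion lists were read in the knock-downs too, beside 3.83% of all genes higher and 4.04% lower with Tmem120b knocked down, or 6.66% and 7.03% of those above background. In the Tmem120b knock-down ribosome assembly genes had 1 higher and 6 lower of 73, as in Nop14 (-1.14), Las1l (-0.88) and Rpf2 (-0.76), and rRNA transcription genes 2 higher and 2 lower of 24, with Polr1e at 0.66 and Polr1c at -0.70. Translation factors had 1 higher and 3 lower of 35. The elongation factor subunit Eef1b2 was at 0.63, and Pabpc1, the poly(A)-binding protein whose mRNA also starts with a pyrimidine tract, at -1.26. Mitochondrial ribosomal proteins had 0 higher and 5 lower of 76, Mrpl20 at -1.28 first. Against the Tmem120a knock-down they had 0 higher and 2 lower (3.66% and 2.75% of all genes) with a median of -0.14. The growth regulators had 1 higher and 6 lower of 28, with Mxi1 at -1.47, the transcription factor Sp1 at -1.17 and the kinase Eif2ak2 at 1.03. The shares of assembly and mitochondrial genes that were lower were near the 7.03%. With Tmem120a knocked down, 0 assembly genes were higher and 3 lower, 0 and 1 of rRNA transcription, and 0 and 4 translation factors. Mitochondrial genes had 2 and 4, and regulators 1 and 5. Over all genes 0.829% were higher and 2.32% lower there, or 1.44% and 4.04% of those above background. In the double knock-down the counts were 0 and 6, 1 and 2, 1 and 2, 2 and 5, and 1 and 6, in the same order. Its shares were 3.29% and 3.96% of all genes, or 5.73% and 6.89% of those above background.

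Markers of other cell states moved in the comparison of the single knock-downs too. Of 8 preadipocyte or fibroblast markers 5 were higher with Tmem120b than with Tmem120a knocked down and 0 were lower, as in Acta2, smooth muscle actin (1.91), and Timp1 (1.07), and 4 of 11 adipocyte markers were lower. In differentiation this list did not move as a block. Acta2 (-4.27), Timp1 (-3.94) and Thy1 (-1.46) fell, Col3a1 (2.51) and Pdgfrb (0.61) rose, and the median was 0.24. The summed linear signal of the 8 was 45100 to 50100 in preadipocytes, 17100 to 19700 in control adipocytes, 11600 to 13300 in the Tmem120a, 20600 to 20900 in the Tmem120b and 16000 to 21000 in the double knock-down. Cd34 was at or near background in all groups. Their part in the higher signal of the ribosomal protein genes was not tested. In these bulk samples a change in the share of preadipocyte-like cells and a change of RNA per cell cannot be told apart.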

How the data were processed

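Biotinylated cRNA made from total RNA was measured on Illumina MouseWG-6 v2 arrays. The authors deposited log2 signals for 45281 probes on 11 arrays, quantile-normalised, and a second table of log2 signals without normalisation. Normalising the second table again gave the first within 0.0398. Of the sources used here none gives background subtraction, detection p-values or array positions on the chips.

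Probes were named from the platform annotation (34885 with 1 symbol, 18 with several, 10378 with none), and a gene was read on its probe with the highest mean. Groups of samples came from the sample labels. All 5 groups were fitted with limma 3.58.1 in R 4.3.3 (lmFit, contrasts.fit, eBayes, residual df 6), p-values were adjusted by Benjamini-Hochberg over all probes, and a call needed an adjusted p of at most 0.05 and a log2 change of at least 0.5. The procedure was tested on simulated data. The small number of arrays limits the precision, and where replicates are not separate cultures p-values measure technical spread. Background (log2 6.86) was the mode of all values, 6.65, plus 3 times the spread below it, 0.0696. Values within 0.5 of the maximum counted as near saturation.

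Named genes were the stalk genes, up to 8 called members with the largest rise and fall against control adipocytes or preadipocytes (3 and 3 otherwise), paralogues, members near saturation or with disagreeing probes, those with the 3 widest and 3 narrowest ranges, and 3 genes of each companion list. Members and lists were chosen with earlier results of these data known. Promoter sequences came from RefSeq (GRCm38.p6). Alternatives covered the scaling, the probe per gene, a filter at log2 6.5, the fold threshold, the arrays fitted, the moderated F statistic, the replicate block and leaving out each array. Replicate numbers are shared by the groups but were not treated as pairs.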

Additional observations from a re-analysis of the deposited data

Results flagged for a closer look

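The effects of the 2 single knock-downs, each taken against the same control adipocytes, differed in 11 ribosomal protein genes by limma's test of the difference between them, all of them higher with Tmem120b than with Tmem120a knocked down. The difference on the log2 scale was 0.82 for Rps15, 0.69 for Rps26, 0.66 for Rpl22, 0.63 for Rps10 and Rpl36a, 0.54 for Rplp0, 0.53 for Rpl31 and Rps16, and 0.52 for Rpl12, Rpl28 and Rpl34. Rpl36a lost its call without any of the 4 arrays compared (adjusted p from 0.113 to 0.184). Without Tmem120b array 1 the differences of Rpl12 (0.45), Rpl31 (0.36), Rpl34 (0.34), Rps16 (0.30) and Rps26 (0.57) were not called either. The same held for Rplp0 (0.41), Rpl12 (0.44) and Rps16 (0.52) without Tmem120a array 1. It also held for Rpl34 (0.49) and Rps26 (0.58) without Tmem120a array 2, and for Rpl28 (0.47) without Tmem120b array 2. Only Rps15, Rps10 and Rpl22 kept their call whichever of these arrays was left out.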

How the results depend on the processing

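Shifting arrays only to a common median left 10 of the members lower and 1 higher in differentiation, 19 lower with Tmem120a knock-down, 0 higher with Tmem120b and 0 higher with the double knock-down. On the second brightest probe above background (16 genes) there were 11 lower and 1 higher in differentiation, 1 lower with Tmem120a, 2 higher and 1 lower with Tmem120b, 1 higher and 1 lower with the double knock-down, 2 higher between the single knock-downs and 3 higher in the double against the Tmem120a knock-down. Without a fold threshold 1 was higher in differentiation, 1 higher and 8 lower with Tmem120a, 17 higher with Tmem120b, 11 higher with the double knock-down, and 21 and 14 higher in those 2 comparisons between knock-downs. At a log2 change of at least 1 the counts were 6 lower in differentiation, 1 lower in each knock-down, and 0 higher in the Tmem120b and double knock-downs and between knock-downs. Among settings chosen after seeing the data, a signal of at most 13 gave 1 higher in differentiation and 7 higher between the single knock-downs. Leaving out paralogues and the retrogene gave 1 lower with Tmem120b and 1 higher and 1 lower with the double knock-down. Shares over all genes were computed only for the main setting, adjusted p alone, the median shift and the limit of 13. Whether counts under the other settings, also with an array left out, exceed the general rate was not tested.

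Leaving out 1 array at a time gave 20 to 25 lower in differentiation, 2 to 3 lower with Tmem120a, 0 to 12 higher with Tmem120b, 0 to 2 higher and 2 to 5 lower with the double knock-down, 5 to 21 higher between the single knock-downs, 2 to 7 higher and 0 to 1 lower in the double against Tmem120a, and 0 to 4 lower in the double against Tmem120b. Rplp0 read below 0 with Tmem120b knock-down under the median shift (-0.20, adjusted p = 0.353), on its other probe (-0.30) and in the mean of its probes (-0.02, adjusted p = 0.916), and with the double knock-down likewise (-0.25, adjusted p = 0.298, then -0.30, and -0.12, adjusted p = 0.226). The other probe was under the background threshold in both knock-downs and enters the mean, and the shifted values missed the threshold, so these are no measured reversals. With the replicate number as a block the counts were 25 lower in differentiation, 2 lower with Tmem120a, 4 higher and 2 lower with Tmem120b, 2 and 2 with the double knock-down, and 10, 6 and 0 higher between knock-downs. Rps3a1 lost its call in differentiation under the block (adjusted p = 0.0873). Same-numbered arrays correlated at -0.086 to 0.132 in their deviations (20 pairs, 4 over 0.1). The refitted normalisation, the low-signal filter, the mean of probes, the F statistic and the fit on the compared arrays alone kept every count within 1.5 times. Probes near background or saturation limit what a change can show.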
